A study of Mus musculus with 12 samples.

Results

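Resting macrophages were taken as the arrays labelled 0 h, which are 2 of the 12 arrays of the series and are called array 2 and array 4 after the numbers in their labels. The cells were bone marrow-derived macrophages (BMDM) from male Balb/c mice (no genetic change is named in the labels) aged 8 to 9 weeks, grown in the growth factor CSF1 at 10000 U/ml and collected on day 7 without interferon. The other arrays, 2 each at 1, 2, 4, 8 and 24 h after 10 U/ml Ifn-β, were not compared with them here. Both arrays carry RNA from separate wells, and whether the wells came from 1 preparation of bone marrow or from several is not stated, so the spread between them may be technical. CSF1 was present throughout, so resting here means without interferon and not without growth factor.

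Of the 23332 transcript clusters on the Affymetrix Mouse Exon array, 14996 carried exactly 1 gene symbol, and they gave the 14860 genes described below. Each value is the authors' log2 RMA level, and paired values are given in the order array 2, then array 4. Within each array the genes were ranked, and the rank was written as a percentile from 0 for the lowest to 100 for the highest, averaged over both arrays. A rank is a rank of array signal. Probes of different genes bind with different strength, so a gene's place among other genes describes the array and only roughly its transcript number. In bulk RNA, fewer cells of a type and less RNA per cell cannot be told apart. With 1 group of 2 arrays no test was made, and every count is a description.

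Macrophages are phagocytes: they take up microbes and dead cells, digest them in acid lysosomes, and sense infection through surface, endosomal and cytosolic receptors. Csf1r, the receptor of CSF1, keeps them alive and the transcription factor Spi1 (PU.1) sets their identity. Type I interferon signals through Ifnar1 and Ifnar2 to antiviral genes, some of which are already transcribed at rest.

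The arrays gave nearly the same profile. Across genes Pearson's r was 0.9949 and Spearman's rho 0.9954, over genes that share the 2 arrays and are not independent replicates. The median absolute difference was 0.14 on the log2 scale and 95% of genes differed by no more than 0.45. Neighbours in the order that lie within about 0.14 of each other therefore have no settled order. Gene levels ran from 1.23 to 14.04 in array 2 and from 1.17 to 13.96 in array 4.

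To place low signals, 799 olfactory and vomeronasal receptor genes, which belong to sensory neurons, served as a reference. Their median level was 3.20 and 3.25, and their 95th percentile, here the receptor reference, was 5.43 and 5.52. In both arrays 9407 of the 14860 genes (63.3%) lay above this reference and 5057 lay below it. A percentile of 90 or above in both arrays, called high-ranking below, was reached by 1429 genes (9.62%). These shares, 63.3% and 9.62%, are the background against which each list of genes is read.

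**Figure D1:**
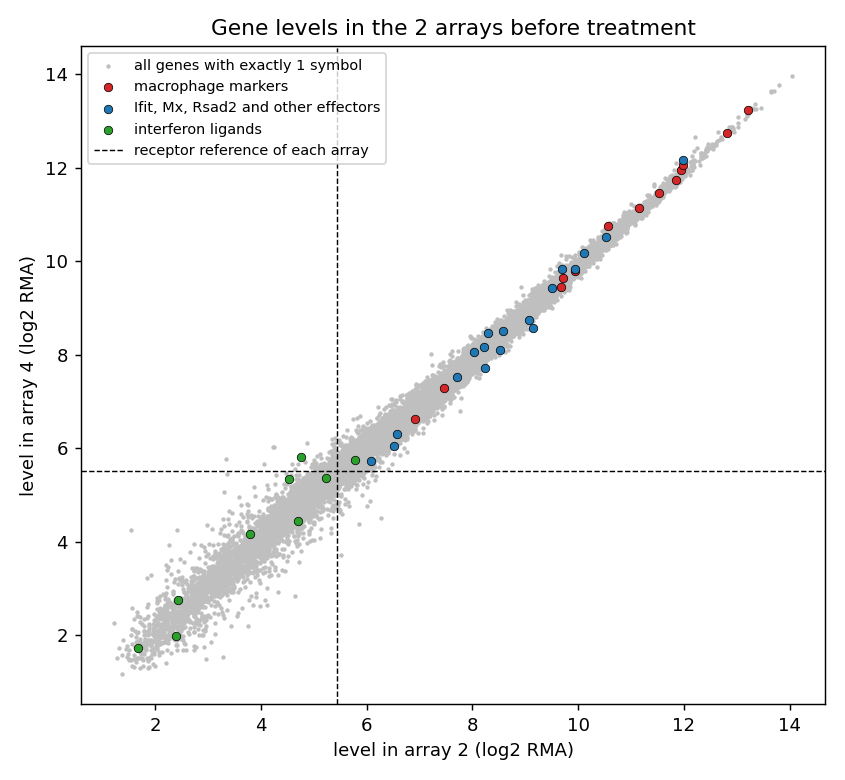
Level of each gene with exactly 1 symbol in array 2 (horizontal, log2 RMA) against array 4 (vertical, log2 RMA), both at 0 h, with macrophage markers in red, interferon effector genes in blue, interferon ligands in green and the receptor reference of each array (5.43 and 5.52) as dashed lines. All 13 macrophage markers and all 18 effectors lie above both lines, and 1 of the 9 interferon ligands does.

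The cells carried the markers that their label calls for. All 13 measured macrophage markers were above the receptor reference and 10 were high-ranking, with a median percentile of 98.0. Cd68, a lysosomal glycoprotein of macrophages, had levels of 13.22 and 13.24 (percentile 99.9). Adgre1, the F4/80 antigen, had 11.85 and 11.74, and Itgam, the integrin chain CD11b, had 11.53 and 11.46. Csf1r had 11.15 and 11.14 (98.0), and Spi1 had 10.57 and 10.75 (96.5). The markers with the lowest ranks were Aif1, a calcium-binding protein of macrophages, at 7.46 and 7.28 (60.8), and Mertk, a receptor for dying cells, at 6.91 and 6.62 (52.8). A few established markers thus sat near the middle of all genes. The Y-linked Eif2s3y (9.11 and 8.81) and Kdm5d (7.12 and 6.89), looked up outside the lists, were above the reference, as the male label calls for.

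Markers of other cell types were low as a group. On 10 lists for other cells of blood, marrow and stroma, 70 markers were measured, and 27 of them lay above the reference (38.6%, against 63.3% of all genes), none was high-ranking, and the median percentile was 34.0. The T cell receptor chain Cd3g had 3.80 and 3.71, the B cell antigen Ms4a1 (CD20) had 2.98 and 3.12, and the NK cell receptor Ncr1 had 3.09 and 3.14, all below the reference. These are at or near the low end of their lists. Above the reference were 3 of 9 T cell, 1 of 6 B cell and 2 of 5 NK cell markers. Among them were Pax5 of B cells at 5.75 and 6.01 and Eomes of NK cells at 5.91 and 5.97. The stem and progenitor list had the largest share above it, 4 of 6 (66.7%), with a median percentile of 44.2. Neutrophil granule genes were near the reference, with Mpo (myeloperoxidase) at 5.36 and 5.42 and Ngp at 4.94 and 5.24, while S100a8 had 6.57 and 6.67. The 3 highest were Cd28, a costimulatory receptor of T cells, at 9.37 and 9.30 (87.9), Pf4, a platelet chemokine, at 9.24 and 9.19 (86.6), and Vwf, the clotting factor of endothelium and platelets, at 8.62 and 8.45 (78.1). Other markers on the same lists lay on both sides of the reference. Below it were Cd3d at 4.91 and 5.27, Gp9 of platelets at 4.85 and 4.81, and Cdh5 of endothelium at 4.56 and 4.72. Above it were Zap70 and Cd5 of T cells (percentiles 39.4 and 40.9), Ppbp and Itga2b of platelets (43.7 and 37.7) and Kdr of endothelium (51.6). Of the erythroid and megakaryocyte markers 4 of 7 were above it, and of the endothelial markers 2 of 7. Osteoclast markers, from cells that also arise under CSF1, were mixed. Atp6v0d2, a proton pump subunit needed for osteoclast fusion, had 11.06 and 11.01 (97.7), whereas the protease Ctsk was at percentile 66.7, the phosphatase Acp5 at 57.0 and the calcitonin receptor Calcr below the reference.

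**Figure D2:**
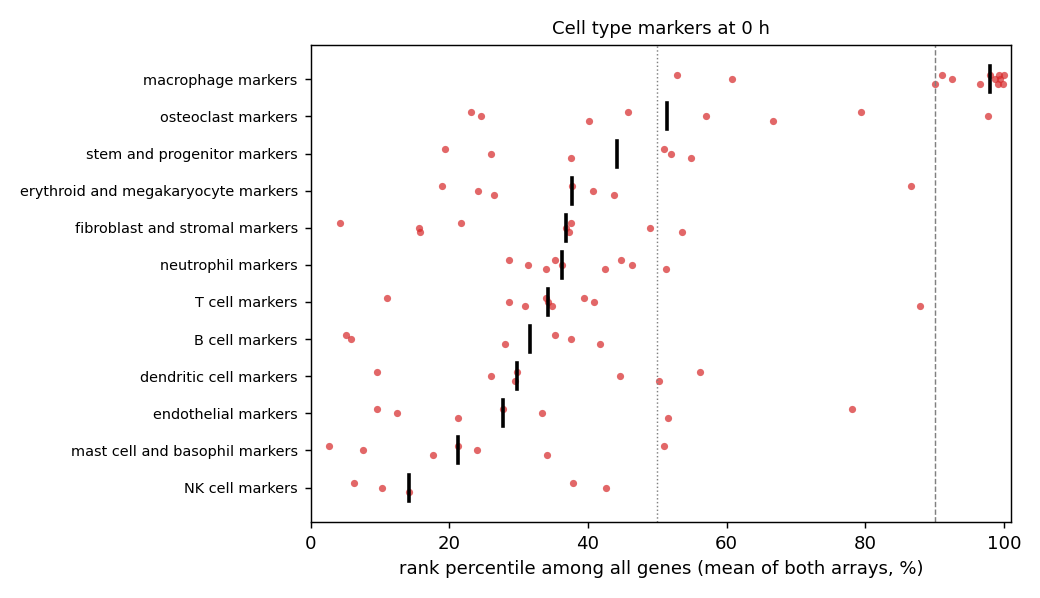
Rank percentile (mean of both 0 h arrays, %) of every measured marker, 1 point a gene, by cell type, with the list's median as a black bar, the middle of all genes dotted and percentile 90 dashed. The macrophage list has its median at 98.0, the osteoclast list at 51.3, and the other lists have medians of 44.2 or lower.

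The strongest signal of all was Fth1, the ferritin heavy chain that stores iron, at 14.04 and 13.96. Actb, the cytoplasmic actin, followed at 13.81 and 13.77. Then came the lysosomal proteases Ctsd at 13.70 and 13.64 and Ctsb at 13.65 and 13.64, with Psap, the precursor of the saposins that help lipids to be broken down, at 13.65 and 13.61. Iron storage, cytoskeleton and lysosomal digestion thus held the first 5 places. The next places went to Cdc42, a GTPase of cell shape (13.46 and 13.28), Vim, the intermediate filament vimentin (13.34 and 13.35), Ctss, the cathepsin that trims invariant chain (13.37 and 13.25), the phospholipid-binding annexin Anxa1 (13.33 and 13.25), Cst3, a cathepsin inhibitor (13.29 and 13.28), and Lgals3, a galactose-binding lectin (13.25 and 13.27). Levels were then close, from Cd68 to S100a10, at place 30, with 12.82 and 12.77. Of the 30 highest genes, 29 were among the highest 30 in each array, and 93 of the highest 100 were in both.

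Secreted and surface products stood among these 30 genes. Ccl9, a chemokine of mouse macrophages, had 13.21 and 13.15, Mmp12, the macrophage elastase, had 13.15 and 13.04, and Lpl, lipoprotein lipase, had 13.03 and 12.96. Gpnmb, a glycoprotein of lysosome-related organelles, had 13.19 and 13.10 and Grn, progranulin, 12.92 and 12.87. Fcer1g, the signalling chain shared by Fc receptors, had 13.03 and 13.08. Of the 100 highest genes, 50 belonged to a list described here, and 20 of these belonged to the lysosome.

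Lysosomal genes filled the upper end of the order. Of 70 measured genes on 4 lysosomal lists, 69 were above the reference and 50 were high-ranking (71.4%, against 9.62% of all genes), with a median percentile of 97.6. Cathepsins and their inhibitors had a median of 99.2. Ctsl had 13.20 and 13.14, the carboxypeptidase Ctsa 12.94 and 12.85, Ctsz 12.80 and 12.70, and the asparagine-specific protease Lgmn 12.72 and 12.61. Not every cathepsin ranked so: Ctsh had 7.75 and 7.63 (65.4), Ctsf 7.30 and 7.27 (59.6), and Ctsw, a protease of cytotoxic lymphocytes, lay below the reference at 5.08 and 4.96.

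Hydrolases for sugars and lipids had a median percentile of 93.2, with 16 of 24 high-ranking. Lipa, the acid lipase that frees cholesterol, had 12.84 and 12.76, the cholesterol carrier Npc2 12.44 and 12.45, and Hexa, the enzyme missing in Tay-Sachs disease, 12.42 and 12.38. The lowest of the 24 was Idua at 8.04 and 7.98 (70.2), an enzyme of mucopolysaccharide breakdown. Other enzymes of that breakdown were spread upward from it, with Sgsh at 75.3, Galns at 88.1, Arsb at 92.3, Naglu at 94.1 and Gusb at 99.2. Among lysosomal membrane proteins, 10 of 14 were high-ranking. Lamp1 had 12.54 and 12.49 and Lamp2 12.03 and 11.81, and Slc11a1 (Nramp1), which pumps metal ions out of the phagosome, had 11.15 and 11.20.

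The vacuolar proton pump, which acidifies the lysosome, had 14 of 16 measured subunits high-ranking and a median percentile of 98.8. Atp6v1b2 had 12.60 and 12.53 and Atp6v1a, the catalytic subunit, 12.37 and 12.26. Isoforms of the same subunit ranked far apart. Atp6v1b1, the form of kidney and inner ear, had 5.53 and 5.58 (36.6). Among the membrane-domain forms, Tcirg1 (a3) had 11.55 and 11.51, Atp6v0a1 had 11.77 and 11.61, and Atp6v0a2 had 8.69 and 8.51.

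The 8 letters TCACGTGA, the core of the element bound by the lysosomal regulators TFEB and TFE3, were looked for on either strand (the word reads the same on both) in the 250 bases before each RefSeq start. The search was chosen after the levels had been seen. A further word, GAGGAAGT, was searched for in the windows of macrophage markers and was found in 0 of 8. It occurred in 2.44% of all windows, so 8 windows are too few to tell the markers from this background. TCACGTGA was found in 6 of 60 windows of 54 lysosomal genes (10.0%), namely in Atp6v1a, Cd164, Ctsa, Ctsd, Gla and Mcoln1. It occurred in 0.785% of all 32851 windows and in 2.51% of the 1473 windows of high-ranking genes. The factors themselves had middling signals, with Tfe3 at 8.53 and 8.44 (77.3), Tfeb at 7.70 and 7.74 (65.8) and Mitf at 9.14 and 8.94 (84.6). The 60 bases around the word are shown for the 3 highest-ranking of these genes, because they are among the strongest signals in the cells. They lie at chr7:142387893-142387952 (minus strand) for Ctsd, chr2:164833713-164833772 (plus) for Ctsa and chr16:44139358-44139417 (minus) for Atp6v1a in GRCm38.p6, and the word begins 99, 13 and 132 bases before the start. Capitals mark the match, which is a description of letters and not of a bound site.
Ctsd: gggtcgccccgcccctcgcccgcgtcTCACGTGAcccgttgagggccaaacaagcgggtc
Ctsa: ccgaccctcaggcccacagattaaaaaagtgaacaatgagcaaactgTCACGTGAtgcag
Atp6v1a: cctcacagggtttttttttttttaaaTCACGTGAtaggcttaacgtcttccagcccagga

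Genes of the actin cytoskeleton, which drives phagocytosis and crawling, had a median percentile of 96.4, and 15 of 24 were high-ranking. Besides Actb, the monomer-binding Tmsb4x had 12.85 and 12.87, Capg, which caps filament ends, 12.45 and 12.51, and Lcp1, the bundling protein of leukocytes, 12.50 and 12.42. Muscle actins were far lower, with Acta2 at 6.30 and 6.27 (47.0). Chaperones of the endoplasmic reticulum, which fold secreted proteins, were high-ranking in 12 of 14 cases (median 98.4), led by Hsp90b1 at 12.55 and 12.43 and Hspa5 at 12.34 and 12.21.

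Redox, lipid and iron genes were also high as groups. Of 19 genes of the oxidative burst and of antioxidant defence, 13 were high-ranking (median 94.1). The membrane subunits of the phagocyte oxidase that makes superoxide, Cyba and Cybb, had 12.19 and 12.17, and 12.16 and 11.95, with the GTPase Rac2 at 12.03 and 12.13. Of 17 genes of lipid handling, 11 were high-ranking (median 95.5), among them the lipid droplet coat protein Plin2 at 12.58 and 12.48 and the apolipoprotein Apoe at 11.58 and 11.56. The fatty acid carrier Fabp4, at 5.82 and 5.50, was the lowest of them. Of 11 iron genes 6 were high-ranking (median 90.5), with the transferrin receptor Tfrc at 11.29 and 10.98, the haem-degrading Hmox1 at 10.49 and 10.67 and the exporter Slc40a1 (ferroportin) at 9.33 and 9.13 (86.8).

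Cell cycle genes had high ranks too. All 29 measured genes of the cell cycle were above the reference and 15 were high-ranking, with a median percentile of 90.6. Ccnd1, the cyclin that growth factors induce, had 11.79 and 11.80 (99.1). The DNA topoisomerase Top2a had 10.99 and 10.81, the mitotic kinase Cdk1 10.60 and 10.57 and the proliferation antigen Mki67 10.64 and 10.50 (96.2). These are genes of dividing cells. CSF1 was in the medium when the RNA was taken, and whether these ranks depend on it was not tested. Inhibitors were above the reference as well, with Cdkn1a (p21) at 10.50 and 10.49 and Cdkn1b (p27) at 8.04 and 8.15 (71.5). The sister cyclins Ccnd2, at 8.23 and 7.85, and Ccnd3, at 7.98 and 8.38, lay below Ccnd1 in signal and had opposite signs of difference between the arrays.

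Of 27 listed genes of glycolysis 18 were measured, with a median of 70.1 and 5 high-ranking. The median rests in part on tissue forms such as Ldhc, Pgam2, Pklr, Eno2 and Eno3. Aldoa had 12.83 and 12.74 and Tpi1 12.45 and 12.41, whereas the kinase Hk2 had 7.81 and 7.57 (65.4) and the testis form Ldhc lay below the reference. Among protein families found by symbol, mitochondrial ATP synthase subunits had a median of 97.0 (6 of 8 high-ranking), proteasome subunits 94.4 (27 of 36) and annexins 94.0 (7 of 12). The highest proteasome subunit was Psma2 at 11.84 and 11.59, and the highest ATP synthase subunit was Atp5b at 12.55 and 12.49. Families known mainly from other tissues ranged from low to average. Defensins had a median of 5.0 and none of 21 above the reference, serpins a median of 13.9, cytochrome P450 enzymes 18.8 and keratins 28.2. Fox factors (28 of 37, or 75.7%), collagens (28 of 39, or 71.8%), Wnt ligands (68.4%) and Sox factors (61.1%) were above the reference about as often as the 63.3% of all genes. Within low families single genes stood out. Serpinb6a, an inhibitor of intracellular serine proteases, had 11.91 and 11.92 (99.2), and the potassium channel Kcnn4 of blood cells had 11.08 and 10.92 (97.6) in a family with a median of 30.3.

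**Figure D3:**
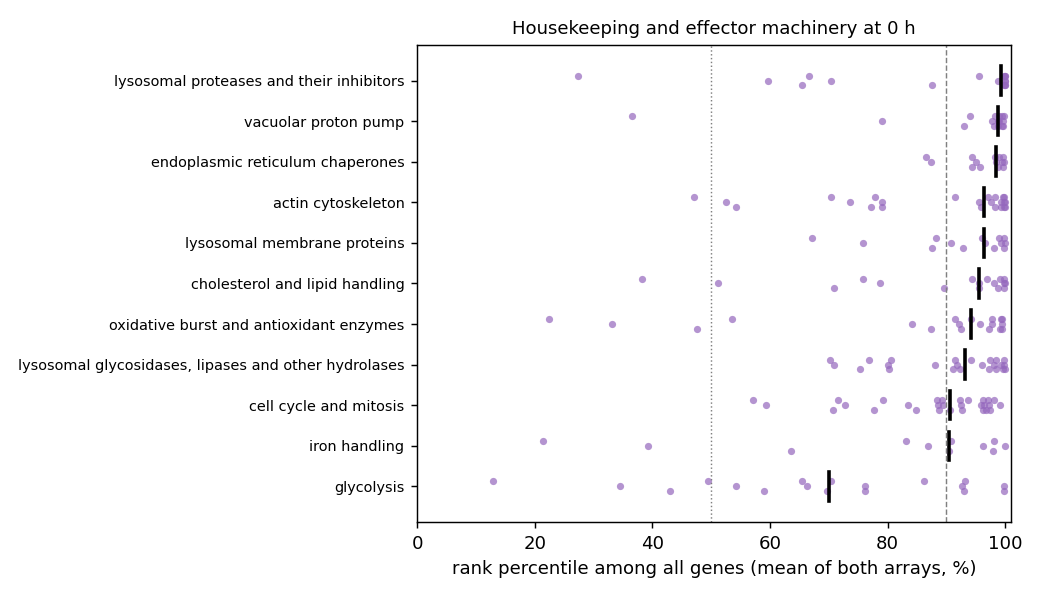
Rank percentile (mean of both 0 h arrays, %) of every measured gene, 1 point a gene, on 11 lists of cell machinery, with each list's median as a black bar, the middle of all genes dotted and percentile 90 dashed. Medians run from 99.2 for lysosomal proteases to 70.1 for glycolysis, and the 3 other lysosomal lists lie at 98.8, 96.3 and 93.2.

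Of 224 measured genes on 15 lists of receptors and their partners, 167 were above the reference (74.6%) and 47 were high-ranking (21.0%, against 9.62% of all genes). The first places went to Fcer1g, the scavenger receptor Cd36 at 12.82 and 12.72 and the complement receptor C3ar1 at 12.60 and 12.48. The integrin chain Itgb2 (CD18), the partner of Itgam, had 12.33 and 12.29. Between C3ar1 and Itgb2 came Hsp90b1, an endoplasmic reticulum chaperone listed as a partner of Toll-like receptors, at 12.55 and 12.43. The first places thus held a signalling chain, a scavenger receptor and a complement receptor. Fcer1a of mast cells, at 2.26 and 2.64, lay near the end of the order.

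The receptors for the interferon used later ranked high before it was given. Ifnar1 had 10.12 and 9.93 (93.5) and Ifnar2 10.50 and 10.47 (95.8). The chains for interferon gamma, Ifngr1 and Ifngr2, had 9.31 and 9.21, and 10.52 and 10.60. Il10rb, which is shared by the receptors for interleukin 10 and interferon lambda, had 11.77 and 11.69, but Ifnlr1, the private chain for interferon lambda, lay below the reference at 4.88 and 4.80 (24.3). The kinases that start the signal had 10.24 and 10.04 for Jak1 (94.2) and 7.75 and 7.77 for Tyk2 (66.4).

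Toll-like receptors, which sense microbial products, ranked widely apart. Of 19 receptors and partners 17 were above the reference (89.5%, against 63.3% of all genes), and the median percentile was 87.7. High-ranking were 6 of them (31.6%, against 9.62% of all genes). These were the receptors Tlr13 and Tlr4, and also Hsp90b1, Cd14, Cd180 and Unc93b1. Of the Toll-like receptors themselves, only Tlr13, Tlr4 and Tlr7 ranked above the list's median. Tlr13, which senses bacterial ribosomal RNA in the mouse, was the highest receptor at 11.72 and 11.49 (98.8). Tlr4, the lipopolysaccharide receptor, had 9.98 and 9.82, with its partners Cd14 at 11.94 and 11.94 and Ly96 (MD-2) at 9.63 and 9.31. The RNA sensors Tlr7 and Tlr8 had 9.58 and 9.52, and 9.46 and 9.06, and Unc93b1, which carries such receptors to endosomes, had 10.79 and 10.78. Tlr2 was at 7.78 and 7.79 (66.8), Tlr3 at 7.66 and 7.49 (63.7) and Tlr9 at 6.34 and 6.74 (50.3). Tlr5 and Tlr11, which recognise flagellin and, in the mouse, profilin, were below the reference at 3.77 and 3.94, and 3.69 and 3.63. The adaptor Myd88 had 9.56 and 9.37 and Ticam1 (TRIF) 6.17 and 6.20 (45.9).

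Sensors in the cytosol took middle ranks. All 14 measured lay above the reference (against 63.3% of all genes), with a median of 67.9. None was high-ranking, but with 9.62% of all genes high-ranking, 14 genes are too few for this to set them apart. Sting1 had 9.24 and 9.20 (86.7) and the DNA sensor Cgas, which makes its ligand, 7.10 and 6.93 (56.1). For RNA, Ddx58 (RIG-I) had 8.95 and 8.79, Ifih1 (MDA5) 8.17 and 8.06 and their adaptor Mavs 8.69 and 8.71. Among inflammasome genes, Aim2 had 9.25 and 8.95, Pycard 9.06 and 9.07 and Nlrp3 7.33 and 7.24.

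Uptake receptors included very high and very low genes. Msr1, which binds modified lipoproteins, had 12.05 and 11.90, but the scavenger receptors Marco (5.34 and 5.36) and Cd163 (5.01 and 5.20) and the receptor for dying cells Timd4 (5.19 and 5.05) were all below the reference. Of the receptor kinases for dying cells, Axl had 8.26 and 8.27 (74.1) and Tyro3 was below the reference. Among C-type lectins, Clec4d had 11.87 and 11.76 and Clec12a 11.67 and 11.50. The mannose receptor Mrc1, the glucan receptor Clec7a and the mycobacterial receptor Clec4e were close to each other at 9.67 and 9.44, 9.67 and 9.43, and 9.68 and 9.41. Among Fc receptors, Fcgr3 had 9.78 and 10.12, Fcgr1 9.95 and 9.78 and Fcgr4 9.36 and 9.29, so their order changed between the arrays.

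Inhibitory and activating receptors of the TREM and Siglec kind had 7 of 18 high-ranking genes. Trem2, a lipid-sensing receptor of macrophages, had 11.71 and 11.73 and Sirpa, which reads the signal Cd47, had 11.69 and 11.68. Trem1, the activating relative, lay below the reference at 4.06 and 3.59. Chemokine receptors ranked near the middle, with a median of 44.8 and 1 of 19 high-ranking. This was Cxcr4 at 10.18 and 10.00. Ccr1 had 9.16 and 9.14, Ccr2, the receptor of inflammatory monocytes, 9.15 and 8.96, and Cx3cr1 8.06 and 7.91. Cytokine receptors were similar as a group, with a median of 50.8 for interleukin receptors. Below Il10rb, the highest of these was Il7r, known from lymphocytes, at 11.60 and 11.38 (98.6). In the TNF receptor family, Tnfrsf1b was the highest at 10.38 and 10.34.

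Transcription factors had a median percentile of 63.7. Of 151 measured factors, kinases and regulators on 10 lists, 116 were above the reference (76.8%) and 12 were high-ranking (7.9%, near the 9.62% of all genes). The order began with Atf3, a stress-induced repressor, at 11.65 and 11.56 (98.8). It went on with Cbfb, the partner of the RUNX factors, at 10.98 and 10.84, Nfe2l2 (Nrf2), the antioxidant regulator, at 10.87 and 10.85, and Klf6 at 10.77 and 10.66. Spi1 came next at 10.57 and 10.75. Klf6 and Spi1 had no settled order, since Spi1 was above Klf6 in array 4 and below it in array 2.

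Factors of the myeloid programme and of signalling were spread over the order. The ETS factor Fli1 (10.20 and 10.11, percentile 94.3) and the growth regulator Myc (9.80 and 9.87, percentile 92.3) were high-ranking. Runx1 had 8.53 and 8.36 (76.7), Cebpa 8.18 and 8.41 (74.5) and Cebpb 7.78 and 7.89 (67.5). All 12 measured NF-kB subunits and inhibitors were above the reference (against 63.3% of all genes), with Nfkbia at 8.79 and 8.88 and Rela at 8.56 and 8.64. None was high-ranking, but with 9.62% of all genes high-ranking, 12 genes are too few for this to set them apart. Of 36 nuclear receptors 20 were above the reference (55.6%, against 63.3% of all genes). They were led by the lipid sensor Pparg at 9.29 and 9.08 (86.3) and the glucocorticoid receptor Nr3c1 at 9.14 and 8.79 (83.7). Of 22 factors that set other lineages 14 were above the reference (63.6%, against 63.3% of all genes), with a median of 42.2. None was high-ranking (against 9.62% of all genes). The highest was Tal1 of blood progenitors at 7.85 and 7.97 (68.7), and Neurod1 of neurons was the lowest at 3.63 and 3.70.

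The factors of the interferon response had mostly moderate ranks. All STAT factors and Janus kinases measured were above the reference, with Stat2 at 9.01 and 8.81 (83.1), Stat3 at 8.75 and 8.59 and Stat6, which interleukin 4 activates, at 10.06 and 10.06 (93.7). Of 8 measured interferon regulatory factors 7 were above the reference (87.5%, against 63.3% of all genes). None was high-ranking, but with 9.62% of all genes high-ranking, 8 genes are too few for this to set them apart. Irf7, the amplifier of type I interferon, had 9.28 and 9.42 (88.0), Irf5 9.19 and 9.25, Irf9 9.08 and 8.91 and the myeloid factor Irf8 9.00 and 8.93. Irf3, which starts interferon transcription, had 7.59 and 7.53 (63.5), and Irf4 was close to the reference at 5.44 and 5.48 (35.1).

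**Figure D4:**
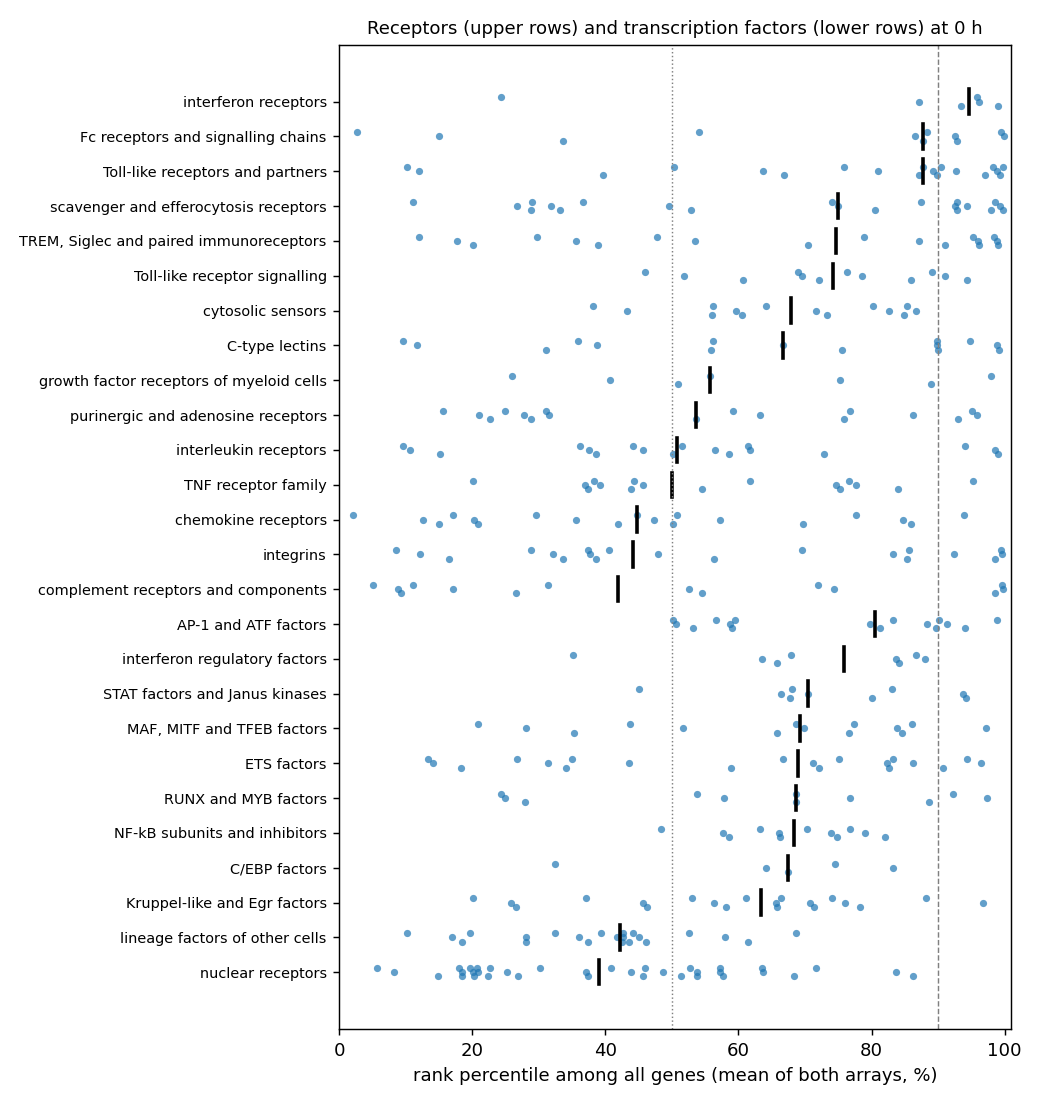
Rank percentile (mean of both 0 h arrays, %) of every measured gene, 1 point a gene, on 15 lists of receptors (upper rows) and 11 lists of transcription factors and their kinases (lower rows), with each list's median as a black bar, the middle of all genes dotted and percentile 90 dashed. Interferon receptors have the highest median of the receptor lists (94.7) and complement receptors and components the lowest (41.9), and in the lower rows the medians run from 80.5 for AP-1 and ATF factors to 39.1 for nuclear receptors.

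Before interferon was given, nearly all measured interferon-response genes were already above the receptor reference. On 4 lists (Ifit, Mx, Rsad2 and other effectors; the Oas family; the ISG15 system; Gbp and Irg GTPases) 31 of 62 listed genes had exactly 1 symbol on the array, and 30 of the 31 (96.8%, against 63.3% of all genes) were above it. Their median percentile was 72.9 and 6 were high-ranking (19.4%, against 9.62%). The 6 were Ifitm3, which blocks virus entry (11.98 and 12.16, percentile 99.4), Ube2l6, the enzyme that conjugates Isg15 (10.66 and 10.54), the nucleotide hydrolase Samhd1 (10.53 and 10.51), Rtp4 (10.11 and 10.18), Tor3a (9.94 and 9.83) and the tether of budding virus Bst2 (9.69 and 9.83).

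Other members of the response sat lower at rest. Oasl2 had 9.27 and 9.38, Ifit2 9.07 and 8.74 and the radical enzyme Rsad2 (viperin) 9.14 and 8.57 (82.2). Ifit1, which binds foreign RNA ends, had 8.24 and 7.71 (69.7) and Oas2, which activates RNase L, 7.94 and 7.87. The dynamin-like GTPases Mx1 and Mx2 had 6.58 and 6.30 (48.8), and 6.09 and 5.72 (41.9), which is little above the reference. Among guanylate-binding proteins Gbp2 had 7.41 and 7.34 (60.9) and Gbp3 6.97 and 6.77, and Gbp5 was the only member of the 31 below the reference, at 5.11 and 4.99. The immunity-related GTPase Irgm1 had 9.46 and 9.47 (89.2). Resting signals within this response thus ran from percentile 27.8 (Gbp5) to 99.4 (Ifitm3) of all genes.

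**Figure D5:**
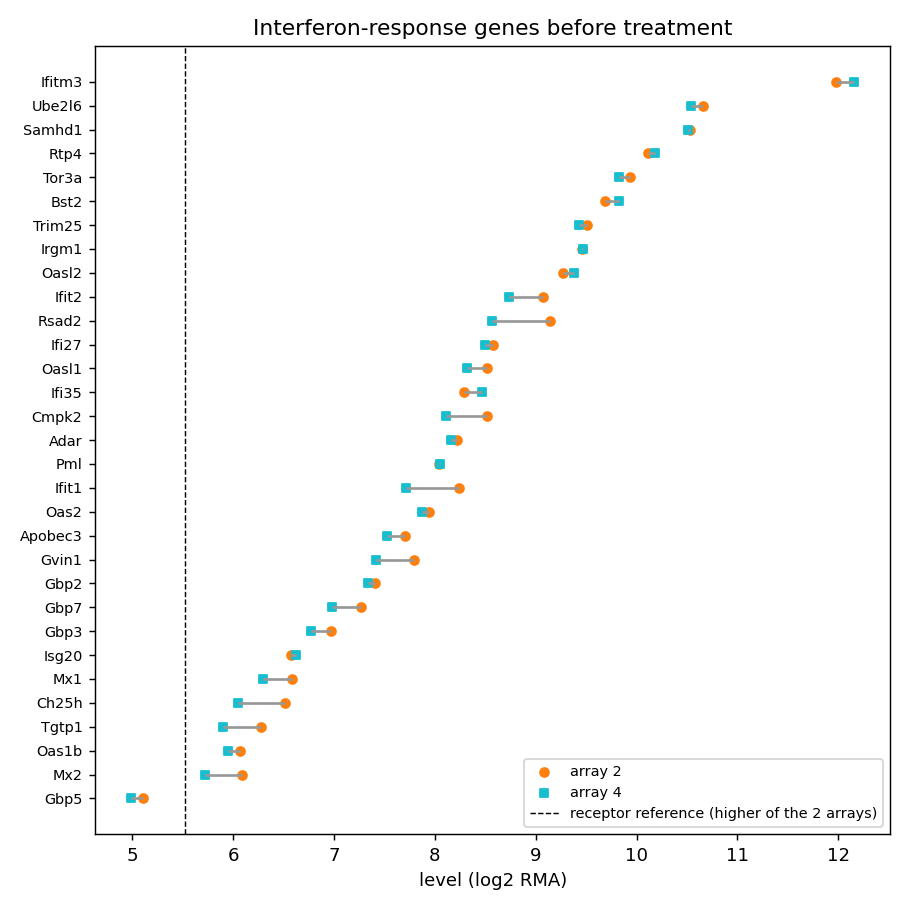
Level (log2 RMA) of the 31 measured interferon-response genes in array 2 (orange circles) and array 4 (turquoise squares) at 0 h, sorted by mean rank, with a line joining each pair and the higher receptor reference (5.52) dashed. Gbp5 alone lies left of the dashed line, and the longest lines, for Rsad2, Ifit1 and Ch25h, all have array 2 at the higher end.

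The ligands were mostly below the reference. Of 9 measured interferon genes 1 was above it, Ifnz at 5.78 and 5.76. Ifnb1, the gene of the protein added later, had 4.53 and 5.35 (26.4), below the reference in both arrays but 0.82 higher in array 4. Ifna4 had 2.43 and 2.76.

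The word GAAA, then any 2 bases and GAAA again, is the core of the element bound by the interferon factors and was looked for on both strands of the same 250 bases, again after the levels had been seen. It was found in 10 of 30 windows of 23 interferon-response genes (33.3%), against 2.98% of all windows and 2.99% of those of high-ranking genes. The genes were Apobec3, Bst2, Gbp2, Gbp3, Gbp5, Gbp7, Ifit1, Irgm1, Rsad2 and Tgtp1, which span the resting order from Bst2 to Gbp5. The 3 with the highest resting rank are shown, at chr8:71537568-71537627 for Bst2, chr11:48871421-48871480 for Irgm1 and chr12:26456538-26456597 for Rsad2 (GRCm38.p6, all on the minus strand and written 5′ to 3′ along the gene). Capitals mark every match. In Bst2 and Irgm1 they cover matches that overlap, and in Rsad2 the match is on the opposite strand. The first match begins 130, 30 and 120 bases before the start.
Bst2: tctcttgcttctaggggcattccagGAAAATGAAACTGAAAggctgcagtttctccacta
Irgm1: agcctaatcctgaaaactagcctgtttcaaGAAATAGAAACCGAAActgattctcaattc
Rsad2: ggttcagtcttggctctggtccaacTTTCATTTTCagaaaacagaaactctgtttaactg

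The arrays differed a little, in this response and in some other groups. Over all genes 169 (1.14%) were 1.5-fold or more higher in array 2 and 198 (1.33%) in array 4, and of these only 20 and 14 were above the reference. A smaller limit, 25% on the linear scale, chosen after the values had been seen and applied to genes above the reference, was passed by 556 of 9407 genes (5.91%) with array 2 higher and by 151 (1.61%) with array 4 higher. Among the 30 interferon-response genes above the reference it was passed by 8 (26.7%), all with array 2 higher. Rsad2 differed by -0.57 (array 4 minus array 2), Ifit1 by -0.53, Ch25h by -0.46, Cmpk2 by -0.41, Tgtp1 by -0.38, and Mx2 and Gvin1 by -0.37, with Ifit2 at -0.33. Cxcl10, the chemokine that interferon induces, differed by -0.59, from 7.47 to 6.88. Ifitm3 and Bst2 went the other way and were 0.18 and 0.14 higher in array 4. Other groups had shares over 5.91% as well, among them chemokines, of which Cxcl10 is a member, with 5 of 18 (27.8%), the Zfp zinc finger genes with 31 of 156 (19.9%) and AP-1 and ATF factors with 3 of 16 (18.8%). With quantile normalization of the 2 arrays the shares of interferon-response genes and of all genes were 16.7% and 2.12%. The median of all genes above the reference differed by -0.09, and no cause was tested.

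Antigen presentation was prepared to different degrees. B2m, the light chain of MHC class I, had 12.89 and 12.80, and Tapbp (tapasin) 10.95 and 10.94. The immunoproteasome subunits Psmb8, Psmb9 and Psmb10 had 9.68 and 9.82, 9.30 and 9.21, and 9.51 and 9.66, and the peptide transporter chains Tap1 and Tap2 8.59 and 8.41, and 8.00 and 7.91. For class II, H2-Aa had 10.27 and 10.16 (94.6) and the invariant chain Cd74 9.88 and 10.09 (93.2). Of the costimulators, Cd80 had 7.92 and 7.67 and Cd86 6.15 and 5.60.

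Most cytokine genes were not above the receptor reference. Of 33 measured 8 lay above it (24.2%, against 63.3% of all genes), or 17 and 5 with the 90th and the 99th percentile of the receptor genes as the limit, and 3 were high-ranking. The 3 were Tgfb1 at 10.69 and 10.70 (96.7), Tnf at 9.85 and 9.80 (92.3) and the interleukin 1 receptor antagonist Il1rn at 9.77 and 9.62. Il1b (5.42 and 5.09), Il12b (5.08 and 5.18), Il10 (4.62 and 4.62) and Il6 (2.77 and 2.64) were below the reference in both arrays. Of the inflammatory cytokines named here, Tnf alone had a high resting rank.

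Chemokines were above the reference about as often as all genes. Of 31 measured 18 were above it (58.1%, against 63.3% of all genes) and 5 were high-ranking (16.1%, against 9.62%). The 5 were Ccl9, Ccl3 at 12.94 and 12.80, Ccl2 at 11.06 and 11.02, Ccl7 at 10.41 and 10.05 and Ccl4 at 9.92 and 9.97. Ccl2 and Ccl7 are ligands of the receptor Ccr2. The interferon-induced Cxcl9 and Cxcl11 were below the reference at 5.00 and 4.80, and 4.27 and 5.23, while Cxcl10 was not. Ccl17 (4.51 and 4.85) and Ccl8 (3.70 and 3.36) were low as well.

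Genes used to mark activated or polarised macrophages were mixed. Of 15 measured 6 were above the reference (40.0%, against 63.3% of all genes) and 8 were below it in both arrays, with a median of 33.7. None was high-ranking (against 9.62% of all genes). The 6 were Mrc1, the checkpoint ligand Cd274 (9.15 and 8.85), the lipoxygenase Alox5 (8.02 and 7.85), Cd80, Cd40 (5.96 and 6.08) and Cd86. Nos2, the inducible nitric oxide synthase of classical activation, had 4.86 and 5.04. Arg1, Chil3 and Retnla, genes of the response to interleukin 4 in the mouse, had 3.68 and 3.72, 2.74 and 3.39, and 2.33 and 2.48. These 4 genes lay below the reference. Feedback inhibitors of cytokine signalling were mostly present, with the phosphatase Ptpn6 (SHP-1) at 11.24 and 11.19, Socs1 at 7.86 and 7.80 (67.6) and Socs3 at 6.19 and 6.65 (48.9), and Socs2 below the reference. Among metalloproteases Mmp12 stood at the top and Adam8 had 11.48 and 11.45, whereas Mmp9 had 5.69 and 5.86 and Mmp3 was below the reference at 3.20 and 3.35.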

How the data were processed

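Total RNA of each culture was hybridised to a Mouse Exon 1.0 ST array. The authors normalised the arrays with RMA in the Affymetrix Expression Console (core gene level), and deposited log2 values with 2 decimals. Versions are not given in the sources used here. No depth applies to arrays, and their number limits the precision. Clusters were named from the supplied platform annotation. Of 23332 clusters 14996 had 1 symbol, 1019 several and 7317 none. A gene with several clusters (135 genes) was given by the highest. Of 1032 listed symbols 819 were measured, 3 of them through the Entrez ID under a newer symbol, and the others were not analysed here. Lists could share genes. Named were the 30 highest genes, members of the 61 gene lists and 30 families, and genes that differed between the arrays. The gene lists and the group of arrays were chosen with earlier results of these data known. Promoter windows of 300 bases came from RefSeq (GRCm38.p6). Levels, percentiles and counts were computed with Python 3.11.15, numpy 2.4.6 and pandas 2.3.3, the procedure was tested on simulated data, and plots used matplotlib 3.10.9. Alternatives were other reference genes and limits, other ways to reduce clusters, each array alone, centring and quantile normalization.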

Additional observations from a re-analysis of the deposited data

How the results depend on the processing

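The number of genes above the receptor reference, 9407, lay between 7772 (99th percentile of the receptor genes) and 10594 (90th percentile) under the other references, and was 9580 and 9630 with each array alone. The number of list members ranked high, 208, lay between 148 at a stricter and 293 at a looser percentile limit, and the 15 lists and families with a median percentile of 90 or above stayed 15 in number under each alternative run. Single medians did depend on the genes ranked: among all transcript clusters, 81 of the 91 medians moved by more than 1 SD between the arrays, with shifts from -0.1 to 8.4 percentile points, and under the other choices the shifts lay between -3.5 and 3.4. Of the 100 highest genes 96 or more were shared with each other ordering. Counts of members above the reference moved by over 1.5 times for 11 of 61 lists at the 99th percentile: cytokines went from 8 to 5 and the TNF receptor family from 15 to 8, and with the 90th percentile cytokines went to 17. The 367 genes at 1.5-fold between the arrays became 376 with quantile normalization. The share of interferon-response genes with array 2 higher by 25% or more, 26.7%, was 23.3% with each array centred on its median and 16.7% with quantile normalization of the 2 arrays, against 5.91%, 5.29% and 2.12% of all genes above the reference. These last settings were chosen after seeing the data. No paired analysis was possible because the result comes from no test and only 1 group was used.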

Other observations

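Some genes that most cells use heavily had middling or low signals on these arrays. The actin-severing cofilin Cfl1 had 7.06 and 6.44, the glycolytic pyruvate kinase Pkm 6.94 and 6.79, and thioredoxin Txn1 4.77 and 4.67, which is below the receptor reference. The 21 cytosolic ribosomal proteins with exactly 1 symbol had a median percentile of 62.7. They ran from Rpl8 at 11.89 and 11.95 to 4 genes below the reference in both arrays. This family was found by symbol and includes Rpl39l (Rpl39-like), the lowest at percentile 4.8. Not every member need therefore be a gene that most cells use heavily. These genes were chosen after their values were seen, and the cause was not tested. They bear on every low rank given above.

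Clusters that carry no gene symbol were not ranked, but 2757 of them (37.7%) were above the receptor reference in both arrays and 578 (7.90%) reached the level of the high-ranking genes. Of the 1019 clusters with several symbols, 464 (45.5%) and 59 (5.79%) did so.

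The neuropeptide gene Npy, which is not on any of the gene lists, was among the 100 highest genes at 11.94 and 12.17. It was chosen after its values were seen.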
